A study of Vitis vinifera with 8 samples.

Results

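The 3 alcohol dehydrogenase genes ADH1, ADH2 and ADH3 were followed across developing and heated grape berries. They are the rows whose numeric gene ID carries one of these Vitis vinifera symbols (100232853 for ADH1, 100232854 for ADH2 and 100233102 for ADH3), 3 of the 25771 genes listed in each library. All 3 passed the filter on low values and were among the 16777 genes tested. The berries came from potted microvines, a dwarf grapevine regenerated from the L1 cell layer of the cultivar Pinot Meunier, and seeds had been removed. All groups therefore share the genotype of that layer, which is known for a gibberellin-insensitive allele. There were 4 groups of 2 biological replicates, each sequenced as 1 single-end mRNA library. These were post-véraison berries (12 to 14 weeks after flowering) at 38 °C, post-véraison berries at 16 °C, pre-véraison berries (5 to 6 weeks) at 38 °C and pre-véraison berries at 16 °C. Véraison is the onset of ripening, when the berry softens, colours and gains sugar. All plants grew at 16 °C and were sampled at 9 AM, then the room was set to 38 °C and sampled again at 10 AM, after 1 hour. Temperature and hour of sampling therefore cannot be told apart, and whole deseeded berries mix skin and flesh, so a change in the cells present cannot be told apart from a change in RNA per cell.

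Alcohol dehydrogenases are zinc enzymes that interconvert aldehydes and alcohols with NAD(H) as the cofactor. In plants they turn acetaldehyde into ethanol when oxygen is short, after pyruvate decarboxylase has made acetaldehyde from pyruvate. In fruits they also reduce the C6 aldehydes that lipoxygenases and hydroperoxide lyases release from fatty acids, the green-leaf odour of crushed berries, to the matching alcohols. In grape the family is known from ripening berries, where ADH2 is its best studied member.

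Values are RPKM, the reads of a gene scaled by its length and by the reads of its library, so that levels can be set side by side between genes. Library denominators recovered from the RPKM steps were 6047199 to 11243341 reads. Of these reads, 23.9 to 26.6% fell on the 10 most abundant genes after véraison and 7.80 to 11.7% before it. Of the 9 stage and heat markers looked for, 8 were listed, and all moved with the labels. The anthocyanin gene UFGT, for example, was at 35.8 to 55.4 RPKM after véraison and at 0 to 0.0971 RPKM before it. The chaperone gene HSP101 was at 45.7 to 65.2 RPKM in heated and 4.74 to 6.45 RPKM in unheated post-véraison berries, and at 944 to 1075 RPKM in heated and 6.34 to 7.12 RPKM in unheated pre-véraison berries. Seed markers could not be checked, since the gene names matched none of them.

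ADH2 was the most abundant of the 3 genes in every library and the one whose level was higher in ripening berries. It stood at 980 and 1042 RPKM in heated post-véraison berries and at 932 and 933 RPKM in unheated ones, where the replicates were nearly equal. In pre-véraison berries it stood at 438 and 476 RPKM when heated and at 541 and 444 RPKM when not. All 4 post-véraison libraries lay above all 4 pre-véraison libraries, as for 14.2% of the genes tested, and heated and unheated libraries overlapped before véraison. After véraison the heated libraries lay above the unheated ones, as for 23.9% of the genes tested, though the difference was not called. ADH2 was the 51st to 59th most abundant gene in the post-véraison libraries and the 98th to 165th in the pre-véraison libraries. Its values rest on 10745 to 14887 recovered reads per library after véraison and 4419 to 5924 before it.

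ADH3 was second in level and went the other way with ripening. It stood at 42.7 and 44.4 RPKM in heated and at 34.8 and 35.9 RPKM in unheated post-véraison berries. In pre-véraison berries it stood at 133 and 138 RPKM when heated and at 160 and 150 RPKM when not. All 4 post-véraison libraries lay below all 4 pre-véraison libraries, as for 52.8% of the genes tested. No pair of the 4 groups overlapped. Heated libraries above unheated ones after véraison and below them before it were found in 6.14% of the genes tested, and replicates were within a coefficient of variation of 2.21 to 4.45%. Between 502 and 795 reads stood behind each value after véraison, and 1710 to 2151 before it.

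ADH1 was the lowest of the 3 in every library. It stood at 6.68 and 8.35 RPKM in heated and at 9.30 and 5.41 RPKM in unheated post-véraison berries. In pre-véraison berries it stood at 38.2 and 42.4 RPKM when heated and at 42.8 and 35.5 RPKM when not. As for ADH3, the post-véraison libraries lay below the pre-véraison ones, while heated and unheated libraries overlapped at both stages. After véraison only 100 to 139 reads lay behind each value, which by counting alone gives an error of up to 10.0%, and the unheated replicates had a coefficient of variation of 37.5%.

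**Figure D1:**
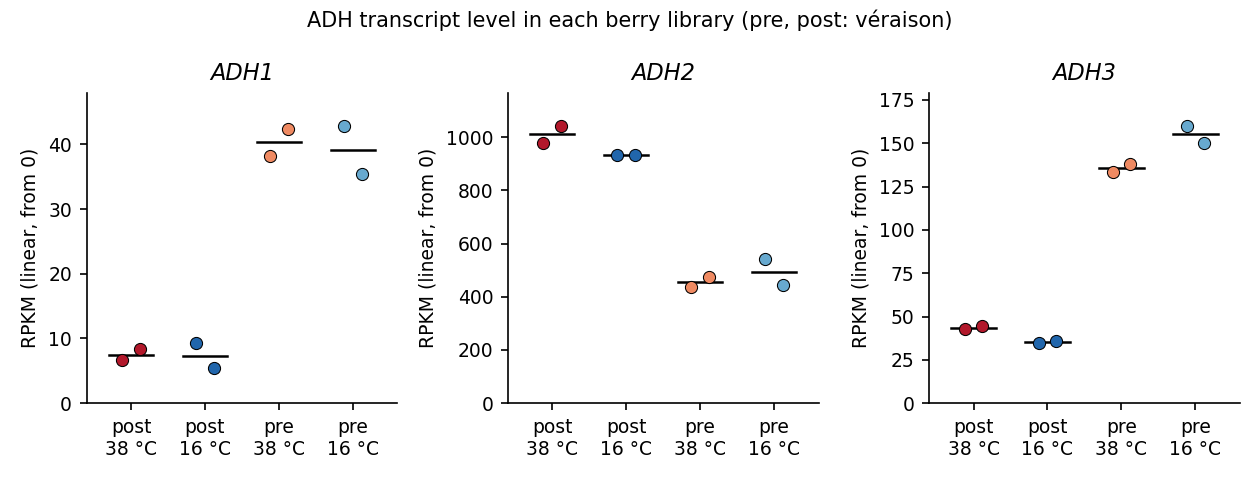
Level of ADH1, ADH2 and ADH3 in RPKM on linear axes from 0, with 1 point per library and a line at the mean of the 2 libraries of a group (post and pre, relative to véraison). ADH2 is higher in all 4 post-véraison libraries, and ADH1 and ADH3 are higher in all 4 pre-véraison libraries. The heated and unheated means of a stage differ far less than the means of the 2 stages.

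The first comparison asked how ripening and green berries differed at 16 °C. ADH2 averaged 932 ± 0.127 RPKM in unheated post-véraison and 493 ± 68.2 RPKM in unheated pre-véraison berries (SD, n = 2 each), a ratio of means of 1.89. ADH1 averaged 7.36 ± 2.76 RPKM after and 39.1 ± 5.21 RPKM before véraison, 5.32-fold lower, and ADH3 35.3 ± 0.781 RPKM after and 155 ± 6.90 RPKM before, 4.39-fold lower (SD, n = 2 each). On the scale of log2(RPKM + 1), the differences were 0.93 ± 0.13 (SE) for ADH2, -2.30 ± 0.21 for ADH1 and -2.10 ± 0.09 for ADH3. ADH2 rose and ADH1 and ADH3 fell by limma, with adjusted p-values of 9.0e-05, 3.8e-06 and 2.5e-08 over all genes tested.

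Most genes differed between the stages, so a call alone sets none of the 3 apart. Of all genes tested, 14.9% were called higher and 57.0% lower after véraison at 16 °C (an adjusted p under 0.05), and the median difference of all genes was -0.52 log2 units. Relative to that median, the differences were 1.45 for ADH2, -1.77 for ADH1 and -1.58 for ADH3. With median-ratio scaling, which centres the libraries on their typical gene, the calls over all genes split into 5293 higher and 5674 lower, against 2498 and 9557 as deposited. The differences then were 1.53 for ADH2, -1.73 for ADH1 and -1.51 for ADH3, with the same directions and calls. A difference at least as large in size as that of ADH1, up or down, was found in 9.39% of the genes tested, against 11.3% for ADH3 and 40.4% for ADH2. These shares use the differences as they stand, not relative to the median of -0.52. They therefore do not rank the rise of ADH2 against the falls of ADH1 and ADH3.

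The same comparison among berries heated for 1 hour gave the same directions. ADH2 averaged 1011 ± 44.2 RPKM in heated post-véraison and 457 ± 26.6 RPKM in heated pre-véraison berries (SD, n = 2 each), a ratio of 2.21. ADH1 averaged 7.52 ± 1.18 RPKM after and 40.3 ± 2.95 RPKM before véraison, 5.36-fold lower. ADH3 averaged 43.6 ± 1.23 RPKM after and 136 ± 3.26 RPKM before, 3.11-fold lower. The log2 differences were 1.14 ± 0.13 (SE) for ADH2, -2.28 ± 0.21 for ADH1 and -1.62 ± 0.09 for ADH3, with limma adjusted p-values of 2.0e-05, 4.1e-06 and 1.2e-07. Among all genes 17.2% were called higher and 53.0% lower, with a median of -0.45 log2 units. With median-ratio scaling 5331 genes were called higher and 5849 lower, against 2889 and 8900 as deposited, and the differences were 1.64 for ADH2, -1.82 for ADH1 and -1.13 for ADH3.

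**Figure D2:**
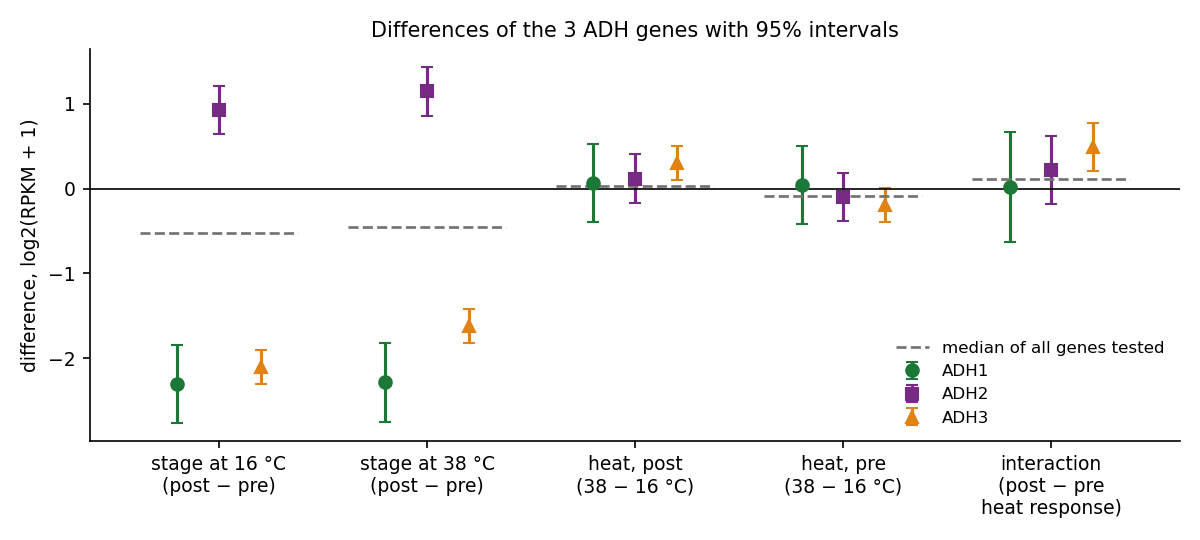
Differences of ADH1, ADH2 and ADH3 on the log2(RPKM + 1) scale in the 5 comparisons, with 95% intervals from limma and dashed lines at the median of all genes tested. The stage differences are -2.30 and -2.28 for ADH1 at 16 and 38 °C, -2.10 and -1.62 for ADH3, and 0.93 and 1.14 for ADH2, while the heat responses of ADH1 and ADH2 span 0 at both stages.

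Because the genes moved apart, the make-up of the summed ADH level changed with stage. The 3 genes together held 1029 and 1095 RPKM in heated and 976 and 974 RPKM in unheated post-véraison berries. Before véraison they held 610 and 656 RPKM when heated and 744 and 630 RPKM when not. ADH2 made up 95.2 to 95.8% of the sum in the 4 post-véraison libraries and 70.5 to 72.7% in the 4 pre-véraison libraries. The share of ADH3 was 3.56 to 4.15% after and 21.0 to 23.8% before véraison, and that of ADH1 0.555 to 0.953% after and 5.63 to 6.46% before. Per unit of ADH3, ADH2 was present at 23.0 to 26.8 times its level after véraison and at 2.96 to 3.45 times before it. These shares restate the levels of the 3 genes and carry no test of their own, and they do not change with the scaling of a library.

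**Figure D3:**
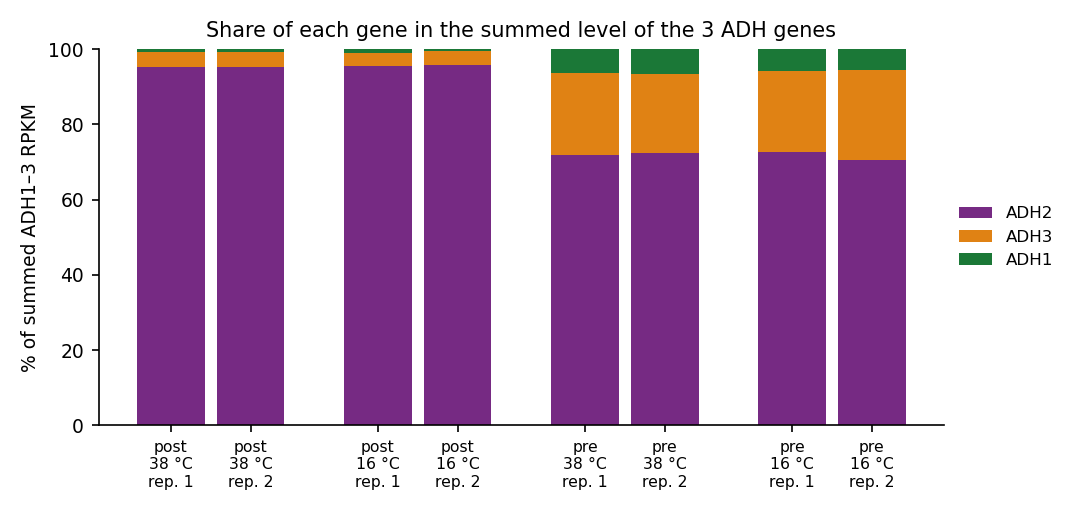
Percent of the summed RPKM of the 3 genes held by each, in 1 bar per library. ADH2 fills over 95% of each post-véraison bar and about 71 to 73% of each pre-véraison bar, and the bars of heated and unheated berries of a stage are nearly alike.

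The next question was whether 1 hour at 38 °C changed these genes in ripening berries. None of the 3 was called by limma after véraison; at an unadjusted p under 0.05 it was 1 (ADH3), and limma voom on the recovered reads called 0. Over all genes 1.09% were called higher and 0.161% lower. ADH3 averaged 43.6 ± 1.23 RPKM in heated and 35.3 ± 0.781 RPKM in unheated berries (SD, n = 2 each), a ratio of 1.23. Its log2 difference was 0.30, with a 95% interval of 0.10 to 0.49 (limma unadjusted p = 0.00813, adjusted p = 0.239). The heated and unheated libraries of ADH3 did not overlap, which held in this direction for 23.9% of the genes tested. ADH2 averaged 1011 ± 44.2 RPKM in heated and 932 ± 0.127 RPKM in unheated berries, a log2 difference of 0.12 with an interval of -0.17 to 0.40 (limma adjusted p = 0.873). The difference of ADH1 was 0.06, with the wide interval of -0.40 to 0.52 (limma adjusted p = 0.976). Changes anywhere within that interval are compatible with these values. The interval is not a limit of detection, and a larger true change might also have gone uncalled.

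In green berries the same hour of heat gave no call for any of the 3 genes either, although 7.96% of all genes were called higher and 12.4% lower in limma. At an unadjusted limma p under 0.05 the count was 0, and limma voom called 0. ADH3 averaged 136 ± 3.26 RPKM in heated and 155 ± 6.90 RPKM in unheated berries (SD, n = 2 each), a log2 difference of -0.19 with a 95% interval of -0.39 to 0.01 (limma adjusted p = 0.169). Its heated libraries lay below the unheated ones, as for 38.1% of the genes tested, and with quantile normalization the difference of -0.27 was called (limma adjusted p = 0.0425). ADH2 averaged 457 ± 26.6 RPKM in heated and 493 ± 68.2 RPKM in unheated berries. The log2 difference of ADH2 was -0.10, with an interval of -0.39 to 0.18 (limma adjusted p = 0.635), and without replicate 1 of the unheated berries it was 0.04. With quantile normalization it was -0.40, just short of a call (limma adjusted p = 0.0525). The log2 difference of ADH1 was 0.05, with an interval of -0.41 to 0.51 (limma adjusted p = 0.909).

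A further test took the heat response after véraison minus that before it, the stage by temperature interaction. ADH3 was the 1 member called: its interaction was 0.49 ± 0.13 (SE) log2 units, with a 95% interval of 0.20 to 0.77 (limma adjusted p = 0.0459). In all genes 3.95% had a called positive and 3.53% a called negative interaction (662 and 592 genes, against 412 and 624 with median-ratio scaling), and the median was 0.12 log2 units. The heated libraries of ADH3 lay above the unheated ones after véraison and below them before it, a pattern without overlap that 6.14% of the genes tested shared. Read the other way, ADH3 differed less between the stages at 38 °C (-1.62) than at 16 °C (-2.10).

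The ADH3 interaction sat at the edge of the threshold. It was not called with median-ratio scaling (0.38 log2 units, limma adjusted p = 0.11), in limma without trend (adjusted p = 0.122), with a robust prior (0.051), with the replicate number as a block (0.082), or without any 1 of the 8 libraries (limma adjusted p = 0.0548 to 0.168). Over its 18 alternatives the limma adjusted p ran from 0.0287 to 0.168 and the difference stayed between 0.38 and 0.53 log2 units. The interactions of ADH2, at 0.22 with an interval of -0.19 to 0.62, and of ADH1, at 0.02 with an interval of -0.63 to 0.67, were not called (limma adjusted p = 0.539 and 0.985). With quantile normalization the ADH2 interaction was 0.55 and not called (limma adjusted p = 0.109).

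**Figure D4:**
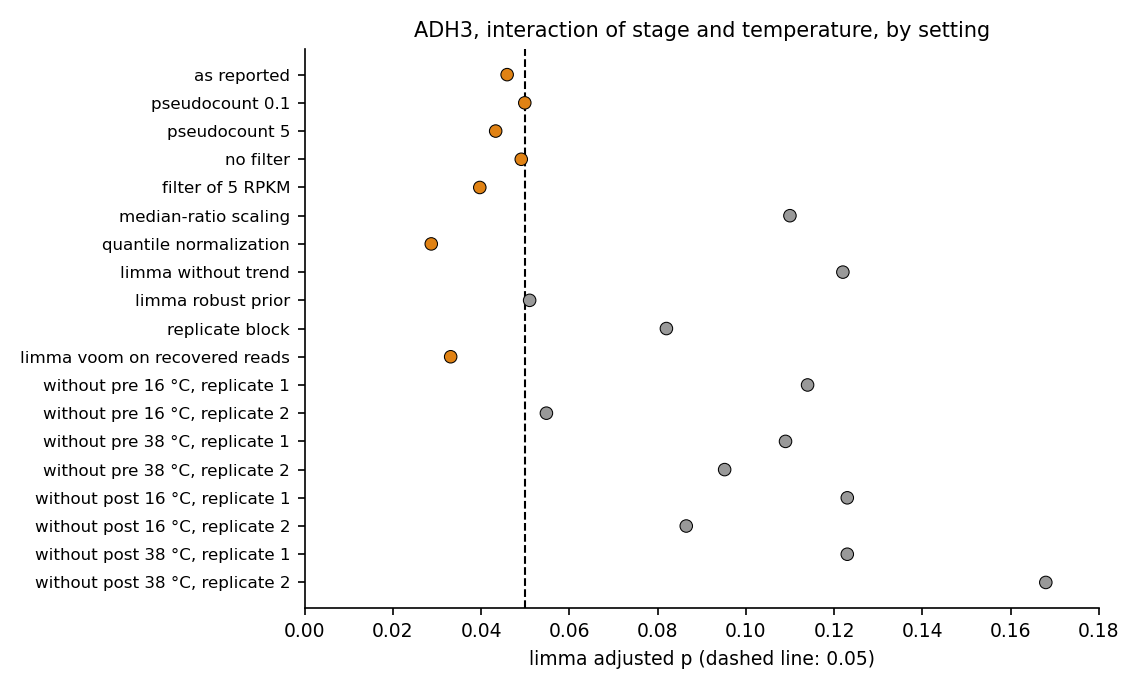
Limma adjusted p of the ADH3 interaction of stage and temperature as reported and under each of 18 alternatives, with a dashed line at 0.05 and orange points for calls. The reported value of 0.0459 lies just under the line, and all 8 settings that leave out a library lie above it, from 0.0548 to 0.168.

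Ordered by mean level, the groups of ADH2 ran from heated post-véraison berries through unheated post-véraison to unheated and then heated pre-véraison berries, and only the last pair of neighbours overlapped. For ADH3 the order was unheated pre-véraison, heated pre-véraison, heated post-véraison and unheated post-véraison berries, with no overlap of neighbours. The share of all genes with either whole order was not counted. Of the parts of the ADH2 order, the stage pattern held for 14.2% of the genes tested and the heat pattern after véraison for 23.9%. For ADH3 the stage pattern held for 52.8% and the heat pattern at both stages for 6.14%. For ADH1 the heated and unheated libraries of a stage overlapped, which leaves only the order of the stages.

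In the RefSeq gene table of the assembly ASM3070453v1, which was used for names and gene order only, ADH1 and ADH3 lie close together on 1 chromosome and ADH2 lies on another. Between ADH1 and ADH3 stand 2 entries, a tRNA and the unnamed gene LOC100250503. That gene averaged 0.0386 ± 0.0545 RPKM in heated pre-véraison berries (SD, n = 2) and was listed at 0 in all other libraries. The next gene on either outer side of the pair did not fall with ripening as ADH1 and ADH3 did. Both were called higher at 16 °C, where 14.9% of all genes tested were called higher and 57.0% lower. Next to ADH1, LOC100267652 averaged 33.9 ± 1.19 RPKM in unheated post-véraison and 22.1 ± 1.45 RPKM in unheated pre-véraison berries, a log2 difference of 0.60 (limma adjusted p = 0.00035). Next to ADH3, LOC100255873 averaged 39.1 ± 7.31 RPKM after and 19.9 ± 4.12 RPKM before véraison at 16 °C, a log2 difference of 0.94 (limma adjusted p = 0.00033). One place farther out from ADH1, LOC100245373 averaged 33.9 ± 2.40 RPKM after and 2.48 ± 0.236 RPKM before véraison at 16 °C. Its log2 difference was 3.33 (limma adjusted p = 3.4e-08). With heat before véraison it was -0.72 (limma adjusted p = 0.00719), a call lost with a pseudocount of 5 and in limma voom. Beyond LOC100255873, LOC100254119 was not tested.

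Of all genes tested, 14.9% were called higher after véraison at 16 °C and 17.2% at 38 °C. On the chromosome of ADH2, the next gene in the table, LOC100255814, was among them. It averaged 260 ± 23.0 RPKM in unheated post-véraison and 137 ± 27.7 RPKM in unheated pre-véraison berries, a log2 difference of 0.93 (limma adjusted p = 0.00016), and at 38 °C the difference was 1.22 (limma adjusted p = 2.2e-05). The neighbour on the other side, LOC100262664, was listed at 0 in all but the heated pre-véraison berries, where it averaged 0.0711 ± 0.101 RPKM. One place farther out on either side, LOC100260882 and LOC100245389 were not called at 16 °C, with log2 differences of 0.21 and -0.10 (limma adjusted p = 0.103 and 0.657). At 38 °C LOC100260882 was called, at 0.27 log2 units (limma adjusted p = 0.0485). How reads matching more than 1 gene were counted is not given in the sources used here, so reads shared between similar members of the family, or with unnamed relatives, may be split between them.

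The genes with a symbol whose profile was most like that of a member were found by Pearson r of log2(RPKM + 1) over the 8 libraries, as a description. For ADH3 these were HP3 (r = 0.998), GRIP55 (0.997) and ZEP (0.994), the last a zeaxanthin epoxidase gene of carotenoid metabolism. For ADH1 they were VVME2 (r = 0.989), LAR2 (0.988), a leucoanthocyanidin reductase gene of tannin synthesis, and ZEP (0.988). For ADH2 they were AGA (r = 0.991), the chalcone isomerase gene CHI (0.990) and GS (0.987). AGA, like ADH2, was abundant and higher after véraison, with means of 763 RPKM in heated and 741 RPKM in unheated post-véraison berries, and of 300 RPKM in heated and 282 RPKM in unheated pre-véraison berries. The libraries fall into 2 clusters by stage, so such an r measures mostly the stage difference: 26.9% of all other genes tested had an r above 0.95 with ADH3, 21.0% with ADH1 and 5.78% with ADH2.

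For the route that supplies C6 aldehydes, the search by symbol matched 4 genes, and all 4 were tested. They were the lipoxygenase genes LOX, LOXA and LOXO and the hydroperoxide lyase gene HPLA. The symbols do not show whether each of them acts in that route. After véraison at 16 °C, 1 of the 4 rose and 1 fell, with a median log2 difference of 0.06 against -0.52 for all genes, of which 14.9% rose and 57.0% fell. With median-ratio scaling or quantile normalization 2 rose and 1 fell, since LOXO was then called higher (0.86 log2 units, limma adjusted p = 0.0443, with median-ratio scaling). LOX averaged 2.26 ± 0.975 RPKM after and 0.110 ± 0.0118 RPKM before véraison, a log2 difference of 1.52. It reached the filter of 1 RPKM only in post-véraison libraries, so the filter favoured its call as higher, which is no test. With a filter of 5 RPKM, which leaves LOX out, 3 genes were tested, of which 0 rose and 1 fell. LOXA averaged 72.8 ± 3.79 RPKM after and 196 ± 11.5 RPKM before, a difference of -1.42 (limma adjusted p = 7.1e-07). At 38 °C 1 rose and 3 fell, where 17.2% of all genes rose and 53.0% fell. The 1 that rose was again LOX, and with the filter of 5 RPKM 0 rose and 3 fell. With median-ratio scaling 1 rose and 1 fell, since LOXO and HPLA were then no longer called (limma adjusted p = 0.373 and 0.55). With quantile normalization LOXO and HPLA were not called either (limma adjusted p = 0.351 and 0.117). LOXO at 38 °C also lost its call without a filter (limma adjusted p = 0.0784) and in limma without trend (0.0524). Its difference of -0.82 log2 units shrank to -0.60 without replicate 1 of the post-véraison group. Without replicate 2 of the pre-véraison group it was -0.26, and neither was called.

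Unlike the 3 ADH genes, LOXO was called with heat before véraison. It stood at 16.3 and 36.6 RPKM in heated and at 5.20 and 6.21 RPKM in unheated pre-véraison berries, a log2 difference of 1.93 ± 0.31 (SE, limma adjusted p = 0.00145). It was the 1 of the 4 called in that comparison, in which 7.96% of all genes rose, with a median of 0.19 log2 units over the 4 genes against -0.09 over all genes. HPLA stood at 447 and 508 RPKM in heated and at 369 and 393 RPKM in unheated pre-véraison berries, a level near that of ADH2 at this stage (log2 difference 0.32, limma adjusted p = 0.188). After véraison 0 of the 4 were called with heat; at an unadjusted limma p under 0.05 it was 1 (LOXO, 0.77 log2 units, limma adjusted p = 0.429), and limma voom called 0.

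**Figure D5:**
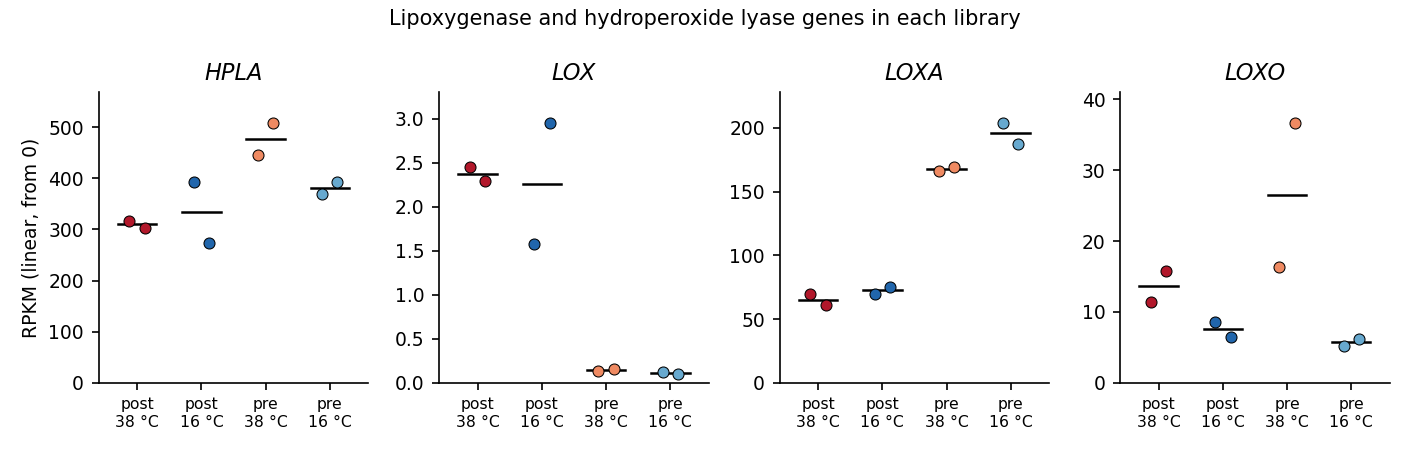
Level of HPLA, LOX, LOXA and LOXO in RPKM on linear axes from 0, with 1 point per library and a line at the mean of each group. LOXA is lower and LOX higher in all post-véraison libraries, and LOXO is at 16.3 and 36.6 RPKM in heated against 5.20 and 6.21 RPKM in unheated pre-véraison berries.

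Among genes of ethylene, the hormone to which grape ADH2 is known to respond, the receptor gene ETR1 was tested. ETR1 averaged 16.5 ± 0.778 RPKM in unheated post-véraison and 19.2 ± 1.67 RPKM in unheated pre-véraison berries, a log2 difference of -0.20 that was not called (limma adjusted p = 0.13) and that was 0.37 and called with median-ratio scaling (limma adjusted p = 0.00845). It was not called with heat before or after véraison (log2 differences -0.21 and 0.0041, limma adjusted p = 0.227 and 1.0). The 8 genes with CTR symbols, of which 4 were tested, also matched the search, but this symbol is shared by kinases of ethylene signalling and by copper transporters, and the table does not say which they are. Before véraison 0 of these 4 rose and 2 (CTR2 and CTR6) fell with heat, where 7.96% of all genes rose and 12.4% fell. CTR6 reached the filter of 1 RPKM only in unheated pre-véraison libraries, so the filter favoured its call as lower, which is no test. With a filter of 5 RPKM, which leaves CTR6 out, 3 genes were tested, of which 0 rose and 1 fell. CTR6 was also called lower after véraison at 16 °C, a call that the filter favoured in the same way. With the filter of 5 RPKM 0 were higher and 2 lower in that comparison. Among all 4, 0 were higher and 3 lower after véraison at 16 °C, where 14.9% of all genes were higher and 57.0% lower. That split was 1 higher and 1 lower with median-ratio scaling and with quantile normalization, under which CTR1 was called higher (0.73 log2 units, limma adjusted p = 0.00622, with median-ratio scaling) and CTR2 and CTR8 were not called. When replicate 2 of the unheated green berries was left out, CTR1 was called higher both with heat before véraison (0.56 log2 units, limma adjusted p = 0.0227) and after véraison at 16 °C (0.44, limma adjusted p = 0.0172). The symbols matched no further ADH gene and no gene for cinnamyl alcohol dehydrogenase, pyruvate decarboxylase, aldehyde dehydrogenase, sucrose synthase or haemoglobin, so these steps were not analysed here.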

How the data were processed

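Messenger RNA of deseeded berries was sequenced single-end, per the labels' protocols. The RPKM values were used as deposited, 1 file per library with no pooling; per the submitters' processing notes Bowtie 0.12.7 and TopHat 1.2.0 were used. The build, annotation, counter, strand setting and handling of multiply mapped reads are not given there. Whole reads, gene lengths and library denominators were recovered from the RPKM steps for all 20845 genes above 0 in at least 3 libraries, up to a divisor common to the reads of a gene. Of the gene IDs, 18647 matched the RefSeq table.

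The 16777 genes that reached 1 RPKM in 2 or more of the 8 libraries were fitted as log2(RPKM + 1) with limma 3.58.1 in R 4.3.3, with a mean per group and an intensity trend (two-sided; residual degrees of freedom 4, prior 6.06). This scale understates the change of low genes. Benjamini-Hochberg adjustment ran over all genes of a comparison, and an adjusted p under 0.05 was a call. SEs and 95% intervals are the moderated ones of the fit and SDs are of RPKM over 2 libraries. Alternatives were median-ratio scaling and quantile normalization, pseudocounts of 0.1 and 5, filters of 0 and 5 RPKM, limma voom on recovered reads, limma with a robust prior or without trend, a replicate block, fits on the 4 compared libraries alone, and leaving out each library.

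Members and lists were chosen with earlier results of these data known. Lists were matched by gene symbol, or by the older name where the symbol was a placeholder, since the table holds no descriptions, and 1 item they matched is not reported here. Named were the 3 members, at most 3 genes per list and comparison with the smallest adjusted p, and the 3 genes with a symbol and the highest r with each member. Neighbouring genes were named by their place in the table, after their values had been seen. Sequences and promoters were not used here. Python 3.11.15 with pandas 2.3.3 and matplotlib 3.10.9 made the tables and figures.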

Additional observations from a re-analysis of the deposited data

Results flagged for a closer look

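The heat response of ADH3 differed between the stages by the test of the interaction, 0.487 log2 units after minus before véraison (limma adjusted p = 0.0459). This call was lost in 12 of 18 alternatives, among them median-ratio scaling (0.38 log2 units, limma adjusted p = 0.11). Relative to the median of all genes the interaction was 0.37 log2 units. An interaction at least as large in size was found in 23.7% of the genes tested. Both heated libraries of ADH3 were above both unheated ones after véraison and below them before it, a pattern that 6.14% of the genes tested shared. No group was large enough to look for a library far from the others, since each holds 2.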

How the results depend on the processing

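The stage differences of ADH1, ADH2 and ADH3 kept their direction and their call under all 19 alternatives, at 16 °C from -2.64 to -1.73, 0.75 to 1.53 and -2.15 to -1.51 log2 units, and at 38 °C from -2.42 to -1.82, 1.09 to 1.64 and -1.64 to -1.13. The ADH3 interaction was 0.38 and not called with median-ratio scaling, 0.487 and not called in limma without trend, with a robust prior or with the replicate block, and 0.441 to 0.532 without 1 library. Same-numbered libraries did not deviate together (r of deviations -0.0522 to 0.0255). That gave no sign of pairing by number, but it cannot show that same-numbered berries were unrelated. The block moved no other call of the 3 genes. The heat difference of ADH3 before véraison was -0.27 and called with quantile normalization. Differences near 0 changed sign without being called. The ADH1 interaction was -0.007 with a pseudocount of 5, -0.086 with median-ratio scaling and -0.077 with quantile normalization, and ran from -0.327 to 0.358 without 1 library. Leaving out 1 library gave ADH1 with heat -0.088 to 0.178 before and -0.282 to 0.404 after véraison, and ADH2 with heat before véraison -0.243 to 0.039. The causes were not tested.

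Over all genes, calls with heat after véraison numbered 210, and 36 with only the 4 libraries compared. Without 1 library they were 104 to 209, calls with heat before véraison 2013 to 3362 against 3417, and interactions 696 to 1061 against 1254. Depth limits ADH1 most, with 100 to 139 reads after véraison. Intervals from reads cover counting error only.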
